A study of Mus musculus with 24 samples.

Results

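The H3K27ac peaks at 10 mouse genes of bile acid synthesis, conjugation, transport and feedback control were examined in male and female liver of 2 inbred strains. The genes were Cyp7a1, Cyp7b1, Cyp8b1, Cyp27a1, Cyp39a1, Baat, Abcb11, Slc10a1, Nr1h4 and Nr0b2, chosen by name among 22350 protein-coding genes of the autosomes and X. A peak belonged to a gene when it overlapped the gene body plus 10 kb on each side (mm9). Overlapping peaks of the 4 lists were merged into regions, and 168 of all 119348 regions lay at the 10 genes. H3K27ac, acetylation of lysine 27 of histone H3, marks active promoters and enhancers.

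Livers came from C57BL/6J (B6) mice and from CAST/EiJ (CAST) mice of either sex, all 8 weeks old, with 5 livers in each of the 4 groups and 1 input control per group. The labels name no transgene and no treatment. Groups follow the sample titles, because a separate strain field calls all females CAST and all males B6, against the titles of the B6 females and CAST males. The files used here are 1 merged peak list per group, which hold no spread between livers, so no SD is given and no test between groups was run here. Every comparison describes 4 lists, and the intervals given for shares of regions are 95% Wilson intervals that cover counting error only. The peak names within each list carry the code of a single library, while the file names and the study's methods call the lists merged.

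Bile acids are made in hepatocytes from cholesterol. The classic pathway starts with Cyp7a1, the rate-limiting hydroxylase, and Cyp8b1 then directs synthesis toward cholic acid. The alternative pathway starts with Cyp27a1, the mitochondrial sterol hydroxylase, followed by the oxysterol hydroxylase Cyp7b1, and Cyp39a1 hydroxylates another oxysterol. Baat joins bile acids to taurine or glycine, Abcb11 (the bile salt export pump) secretes them into bile, and Slc10a1 (NTCP) takes them up again from blood. The bile acid receptor FXR, encoded by Nr1h4, induces Nr0b2 (SHP), a nuclear receptor that represses the synthesis enzymes. Cyp7b1 is known in mouse liver for its higher expression in males.

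Sequences of the mm9 reference, which is a B6 genome, are shown for the elements on which the results turn, and CAST alleles are not shown. The first set holds the 250 bases before the transcript start of Cyp8b1 and Baat, the only members of the 10 whose promoter held the HNF4A motif CAAAGTCCA (in capitals), and of Cyp7b1, whose promoter region differed most in fold enrichment among the lists and held none of the 5 motifs searched.
Cyp8b1, chr9:121825424-121825673, minus strand: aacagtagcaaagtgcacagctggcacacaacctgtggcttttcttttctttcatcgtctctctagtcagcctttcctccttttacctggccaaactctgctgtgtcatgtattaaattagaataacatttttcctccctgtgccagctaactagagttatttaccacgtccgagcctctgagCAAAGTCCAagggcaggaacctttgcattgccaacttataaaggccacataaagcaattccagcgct
Baat, chr4:49519430-49519679, minus strand: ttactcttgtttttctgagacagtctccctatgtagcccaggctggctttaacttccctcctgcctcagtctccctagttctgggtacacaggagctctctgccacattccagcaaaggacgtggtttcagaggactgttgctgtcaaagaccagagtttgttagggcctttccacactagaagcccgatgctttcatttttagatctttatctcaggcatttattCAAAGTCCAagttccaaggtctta
Cyp7b1, chr3:18143339-18143588, minus strand: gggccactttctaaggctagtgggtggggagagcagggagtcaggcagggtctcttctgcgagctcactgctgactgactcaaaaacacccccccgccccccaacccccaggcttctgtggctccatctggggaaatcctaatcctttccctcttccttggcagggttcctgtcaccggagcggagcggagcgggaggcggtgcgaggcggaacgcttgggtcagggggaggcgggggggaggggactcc

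The second set holds 300 bases around the summit of the highest-ranked peak in 3 Cyp7b1 regions outside its promoter (plus strand). The first region was called in all 4 lists, the second in males of both strains and in no female list, and the third in both sexes of CAST and in neither B6 list. None of the 3 holds a searched motif.
Cyp7b1 region of all 4 lists, chr3:18091818-18092117: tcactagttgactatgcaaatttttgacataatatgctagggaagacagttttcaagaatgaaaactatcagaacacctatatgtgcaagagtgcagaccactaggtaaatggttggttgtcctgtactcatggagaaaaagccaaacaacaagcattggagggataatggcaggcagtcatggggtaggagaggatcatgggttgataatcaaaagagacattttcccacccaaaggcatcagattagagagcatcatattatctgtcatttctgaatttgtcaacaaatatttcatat
Cyp7b1 male-only region, chr3:17986608-17986907: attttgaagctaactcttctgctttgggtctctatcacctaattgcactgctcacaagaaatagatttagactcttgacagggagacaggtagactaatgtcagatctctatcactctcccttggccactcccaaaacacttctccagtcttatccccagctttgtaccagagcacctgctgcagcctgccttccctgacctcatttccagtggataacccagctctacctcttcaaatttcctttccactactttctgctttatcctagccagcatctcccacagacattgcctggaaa
Cyp7b1 CAST-only region, chr3:18151793-18152092: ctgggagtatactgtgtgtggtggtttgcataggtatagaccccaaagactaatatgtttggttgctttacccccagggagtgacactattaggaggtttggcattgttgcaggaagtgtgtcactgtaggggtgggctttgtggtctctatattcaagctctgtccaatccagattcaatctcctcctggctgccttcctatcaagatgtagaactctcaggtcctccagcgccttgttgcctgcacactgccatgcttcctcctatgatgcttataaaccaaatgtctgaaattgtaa

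The third set is the primer pair with which the study interrogated a site near Cyp7b1 by qPCR. The paper reports DNase-qPCR there, a measure of chromatin opening and not of H3K27ac. Matched exactly to mm9, the pair spans the 51 bases of chr3:18154514-18154564, between genes and 11.2 kb upstream of the Cyp7b1 start.
Cyp7b1 forward primer: tgcgaaagttattgcattgttttt
Cyp7b1 reverse primer: cattacctaccaccctcttttctttaga

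The lists held 79862 peaks for the males of B6, 82181 for B6 females, 90228 for CAST males and 84645 for CAST females, with a median fold enrichment of at most 2.57. The lists carry no read depth, which was not used here. Of 6 hepatocyte markers, 5 had a peak within 500 bp of their transcript start in every list, as did 2 or 3 of 4 endothelial markers, 0 or 1 of 5 Kupffer cell and leukocyte markers, 0 or 1 of 3 stellate markers and 1 or 2 of 3 cholangiocyte markers. In whole liver a change in cell number and a change of the mark per cell cannot be told apart.

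Peaks at the 10 genes were more numerous in males than in females of both strains, and most of that difference lay at Cyp7b1. The B6 male list held 107 peaks covering 80.7 kb at the 10 genes, and the B6 female list held 89 peaks covering 74.2 kb. In CAST there were 133 peaks covering 87.8 kb in males and 115 peaks covering 78.4 kb in females. Without Cyp7b1 the numbers were 78 and 75 peaks in B6 males and females, and 94 and 87 in CAST males and females. Distal peaks, lying over 2.5 kb away from every annotated start, made up 70.1% of the peaks in B6 males (interval 60.8 to 77.9%), 67.4% in females of B6, and 69.9% and 67.0% in the CAST male and female lists, so the split between promoter and distal elements was alike in the 4 lists. Own promoters, within 2.5 kb of the start of the longest protein-coding transcript, were covered over 23913, 23243, 23807 and 23992 bp in the same order, whereas distal coverage was 45665, 39829, 52761 and 43710 bp. Most of the male excess in covered bp was thus at distal elements. Own promoters held 20 and 17 peaks in B6 males and females and 24 in each CAST list. Distal peaks numbered 75, 60, 93 and 77 in the order of the lists. The ratio of male to female covered bp was 1.0887 in B6 and 1.1198 in CAST at the 10 genes, beside 1.0483 and 1.1151 over the whole lists, so the CAST ratio was close to that of the lists.

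**Figure D1:**
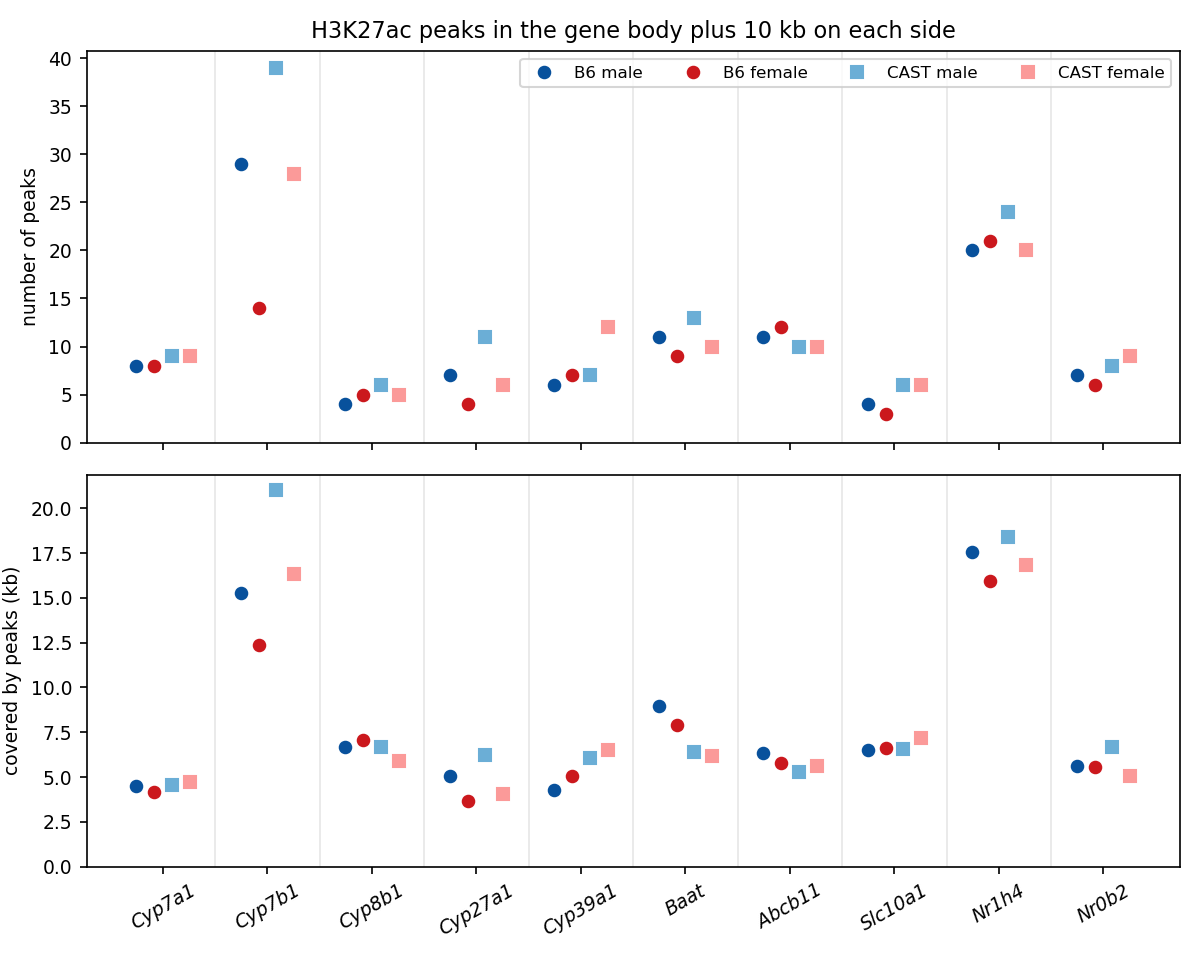
Number of H3K27ac peaks (top) and kb covered by peaks (bottom) in the gene body plus 10 kb on each side of the 10 genes, 1 point per merged list (circles B6, squares CAST, blue male, red female), with no error because each list pools 5 livers. Cyp7b1 has 29 and 39 peaks in the B6 and CAST males against 14 and 28 in the females, and most other genes have close values in the 4 lists.

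All 10 genes had a region over their transcript start or within 28 bp of it, and each of these regions was called in all 4 lists. Fold enrichment over background there ranged from 2.19, at Cyp7a1 in CAST males, to 5.90, at Cyp7b1 in B6 females. Each list has its own background, so fold enrichments of different lists are only set side by side. Score percentiles, which rank each peak within its own list, ranged from 51.5 to 94.9. In B6, 4 of the 10 start regions had the higher fold enrichment in males, and in CAST 6 did. Cyp27a1 had the most even start region, with fold enrichments of 4.47 (B6 males), 4.54 (B6 females), 4.45 (CAST males) and 4.30 (CAST females). The ratio of the highest to the lowest list was 2.001 at Cyp7b1 and 1.61 at Cyp39a1, and between 1.06 and 1.39 at the other 8 genes. A bidirectional start shared with Slc25a27 lies under the Cyp39a1 region, so its signal cannot be assigned to either gene.

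**Figure D2:**
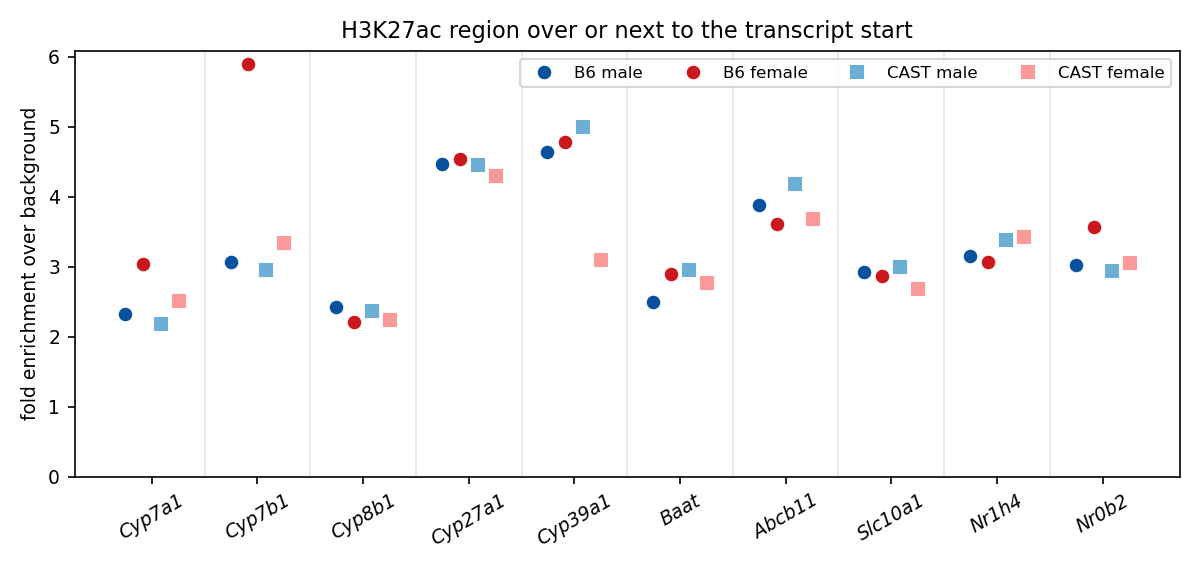
Fold enrichment over background (ratio, as the authors deposited it) of the strongest peak in the region over or nearest to the transcript start of each gene, 1 point per merged list and no error. The B6 female value of 5.90 at Cyp7b1 and the CAST female value of 3.10 at Cyp39a1 stand apart from the other 3 lists.

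Cyp7b1, whose gene body spans chr3:17971950-18143338 on the minus strand, had the largest number of sex-only calls, in the longest window. As a share of the regions called, 62.1% were sex-only in B6 and 51.2% in CAST, below Cyp27a1 (6 of 8 and 7 of 11 regions) and Abcb11 (13 of 18 and 8 of 14), where 34.9% and 35.5% of all regions were. Its window held 29 peaks over 15287 bp in B6 males and 14 peaks over 12356 bp in B6 females. CAST males had 39 peaks over 21006 bp, and CAST females 28 over 16320 bp. The male list exceeded the female list in both strains, although CAST females had about as many peaks as B6 males. Of the 54 merged regions, 49 were distal and 11 were called in all 4 lists. In B6, 16 of the 29 regions called were confined to the male list (55.2%, interval 37.5 to 71.6%) and 2 to the female list. For comparison, 17.4% of all regions called in B6 were male-only and 17.5% female-only. In CAST, 16 of 43 regions were male-only (37.2%, interval 24.4 to 52.1%) and 6 female-only, where 21.5% and 14.1% of all CAST regions were. Regions of 1 gene are not independent of each other, and the intervals take no account of that.

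In all, 5 of the Cyp7b1 regions were male-only in both strains, all in introns, and 0 were female-only in both. Over all regions, 2.35% were male-only in both strains and 1.23% female-only in both. Among all protein-coding genes, 0.0403% had at least 5 such male-only regions, and among the 1163 genes at least as long as Cyp7b1 the share was 0.602% (7 genes). The strongest of the 5 by its mean percentile was chr3:17986570-17987231, 156 kb into the gene, with a fold enrichment of 2.08 in males of B6 and 2.89 in males of CAST. Next came chr3:18020449-18020780, 123 kb into the gene, with 1.98 in B6 males and 2.85 in CAST males. These were weak peaks: the male-only regions of Cyp7b1 had a median score percentile of 9.23 in B6 and 25.2 in CAST, where regions called in both sexes at the 10 genes had male medians of 57.5 and 55.8. When only the upper 50% of each list by score was kept, Cyp7b1 had 2 male-only regions and 2 female-only ones in B6, with 4 and 1 in CAST, and the 5 and 0 regions of both strains became 1 and 1. The excess in B6 therefore rested on peaks in the lower part of the lists.

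**Figure D3:**
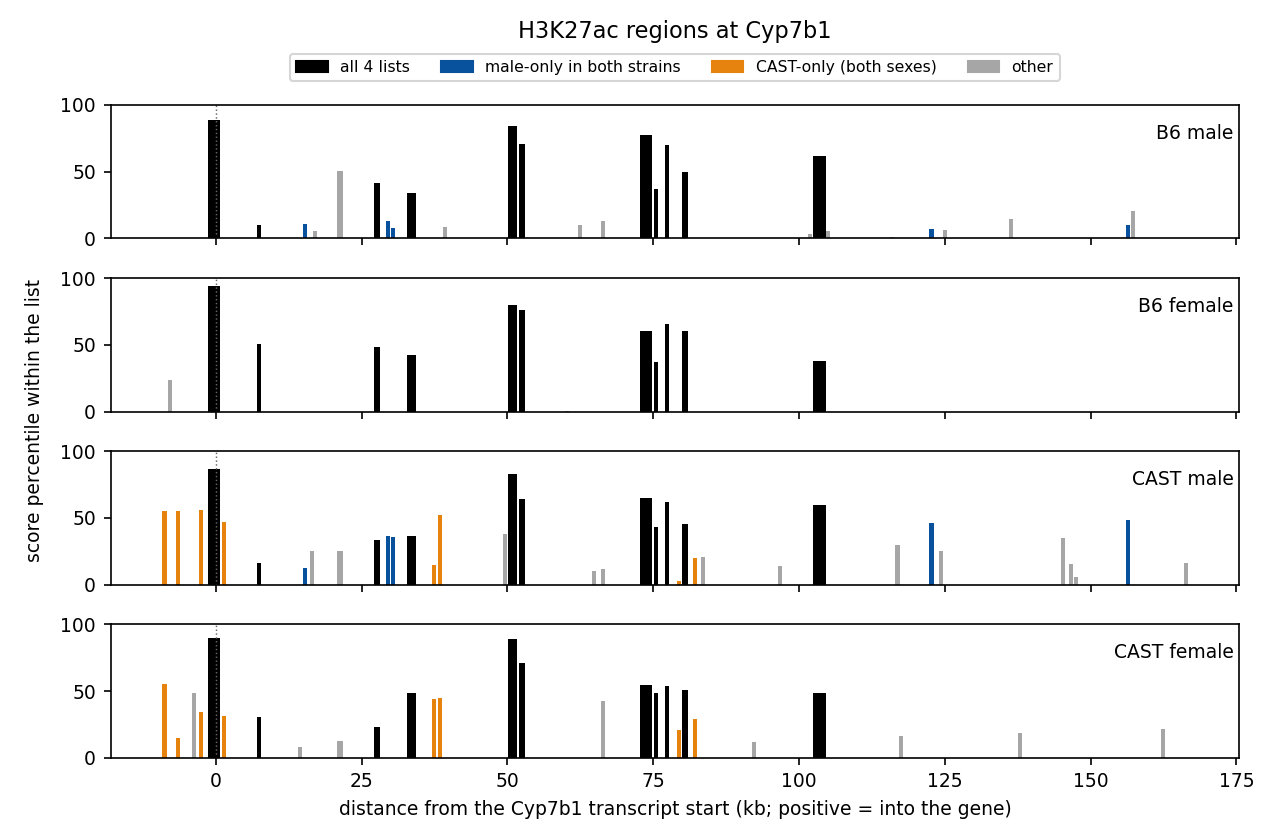
H3K27ac regions at Cyp7b1 in the 4 merged lists, by distance from the transcript start (kb, positive into the gene) and by score percentile of the strongest peak within its own list. Regions narrower than 0.7 kb are drawn 0.7 kb wide. The 11 regions of all 4 lists (black) include the strongest ones, the 5 regions that are male-only in both strains (blue) lie within the gene, and 8 regions are CAST-only (orange).

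At the start of Cyp7b1 the fold enrichment was higher in females of both strains, although more regions were called in males. The region chr3:18142594-18144663, over the first exon, had a fold enrichment of 3.07 in males against 5.90 in females of B6, and of 2.95 against 3.34 in CAST. In B6 males it held 2 peaks, of which the value is that of the higher-ranked one. Its score percentiles were 88.6 and 94.1 in B6 males and females, and 86.8 and 89.8 in CAST males and females, so the female list ranked it higher in both strains. The strongest distal region by mean percentile, chr3:18091740-18093239 in an intron 50.1 kb from the start, was called in all 4 lists with fold enrichments of 3.56 and 3.63 in B6 males and females, and 4.07 and 4.67 in CAST males and females. Over the 11 regions of all 4 lists, the median percentile in males minus that in females was -5.34 in B6 and -5.24 in CAST, and males ranked higher at 4 of the 11 in each strain. The regions of all 4 lists thus did not rank higher in males.

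At the qPCR site 11.2 kb upstream, just outside the window, all 4 lists had a peak at or beside the amplicon. The B6 female peak covered it, with a percentile of 8.73, while the B6 male peak began 102 bp beyond it, with a percentile of 61.6. The CAST female peak covered it at a percentile of 48.0, and the CAST male peak began 44 bp beyond it at 70.3. Both male peaks ranked higher within their lists than the female peaks, and the peaks of the 4 lists overlapped each other. By DNase-qPCR the paper reports male-biased chromatin opening near Cyp7b1 in B6 and not in CAST. Opening and H3K27ac peaks are different features, and their relation at this site was not tested.

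Strain differences at Cyp7b1 ran toward CAST. Both CAST lists shared 21 regions there, of which 8 were called in neither B6 list (38.1%, interval 20.8 to 59.1%), and 0 of 11 were B6-only (upper limit 25.9%). Over all regions the shares were 11.8% for CAST-only and 8.40% for B6-only. In the upper 50% of each list by score 1 of 6 shared regions was CAST-only, and 4 of 19 were after peaks within 500 bp of each other had been joined. Of the 8, 4 lay around the start: chr3:18141650-18142337 within an intron, and chr3:18145599-18145993, chr3:18149634-18150136 and chr3:18151775-18152579 upstream. The last had fold enrichments of 1.982 in CAST males and 2.199 in CAST females and percentiles of 55.6 and 55.4. The CAST libraries were mapped to a genome of their own and lifted to mm9, and the part of that step in the strain difference was not tested.

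Cyp27a1 (chr1:74760148-74784464) was the other synthesis gene with more peaks in males of both strains. It had 7 peaks over 5048 bp (B6 males), 4 over 3663 bp (B6 females), 11 over 6207 bp (CAST males) and 6 over 4038 bp (CAST females). Its ratio of male to female covered bp was 1.38 in B6 and 1.54 in CAST, the highest of the 10 genes in each strain with the flank of 10 kb. With a flank of 25 kb it was 1.37 and 1.27, below Cyp7b1 at 1.41 and 1.36. The Cyp27a1 difference was distal. Distal peaks covered 2493 and 1283 bp in B6 males and females, and 4061 and 1976 bp in CAST males and females. The own promoter covered 2555, 2380, 2146 and 2062 bp in the order of the lists. Of 12 regions, 2 were called in all 4 lists. Male-only regions numbered 5 of 8 called in B6 and 5 of 11 in CAST, where 17.4% and 21.5% of all regions were. Female-only ones numbered 1 and 2, where 17.5% and 14.1% of all regions were. At 7.85 and 8.95 kb upstream, 2 regions were male-only in both strains, and 1.60% of all genes had at least 2 such regions. Both Cyp27a1 regions were weak peaks as well, with percentiles of 24.3 and 1.89 in B6 males and 1.87 and 3.61 in CAST males. In the upper 50% of each list the ratio was 1.04 in B6 and 1.37 in CAST.

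Cyp7a1 (chr4:6192759-6202780) had nearly the same number of peaks in all lists, 8 in both B6 lists and 9 in both CAST lists, over 4187 to 4697 bp. Its start lay in a gap between acetylated regions. The region chr4:6202018-6202767 ended 11 bp downstream of the start, with fold enrichments of 2.33 (B6 males), 3.04 (B6 females), 2.19 (CAST males) and 2.51 (CAST females), higher in the female of each strain. Just upstream, chr4:6203079-6203765 was called in B6 males (fold enrichment 2.27) and in CAST males and females (2.45 and 2.64), but not in B6 females. It was the highest-ranked male-only region of B6 at the 10 genes, with a percentile of 54.4. A region downstream of the gene near the start of Gm11798 had fold enrichments of 2.83, 2.94, 3.85 and 3.49 in the order of the lists and was the strongest of the window except in B6 females, where the start region was. Within the gene body alone, without the flanks, the ratio of male to female covered bp was 0.36 in B6 and 2.65 in CAST, so the even coverage held for the window with its flanks.

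Cyp8b1 (chr9:121823474-121825423), a gene of 1950 bp, had the same regions in every list. All 5 of its regions were called in all 4 lists, and it was the only member with no sex-only region in either strain. Males ranked higher at 4 of these 5 regions in each strain. A single region, chr9:121822394-121825852, covered the whole gene, with fold enrichments of 2.43 and 2.21 in B6 males and females, and 2.37 and 2.24 in CAST males and females. Percentiles there were 80.3 and 70.0 in B6 males and females, and 75.7 and 71.8 in CAST males and females. Peaks covered 30.3% of its window in males and 32.2% in females of B6, and 30.4% and 26.9% in CAST, the largest shares among the 10 genes, where the median over all protein-coding genes was 4.66 to 5.10%.

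Cyp39a1 (chr17:43804374-43888380) had more peaks in females than in males, while its start in CAST was higher in males. It had 6 peaks over 4281 bp (B6 males), 7 over 5042 bp (B6 females), 7 over 6049 bp (CAST males) and 12 over 6518 bp (CAST females). Part of the CAST difference in number came from regions split into more peaks in females. The start region held 3 against 2 in males, and chr17:43826360-43827675 held 2 against 1. Covered bp at Cyp39a1 were lower in males of both strains, with ratios of 0.85 in B6 and 0.93 in CAST. The start region had fold enrichments of 4.64 and 4.78 in B6 males and females, and 5.003 and 3.10 in CAST males and females, with CAST percentiles of 91.1 and 84.0. None of its 9 regions was male-only. Female-only were 1 of 6 called in B6 and 3 of 9 in CAST, where 17.5% and 14.1% of all regions were. The strongest female-only region, chr17:43866587-43866988 in an intron 62.2 kb from the start, had a fold enrichment of 3.35 in CAST females and was not called elsewhere.

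**Figure D4:**
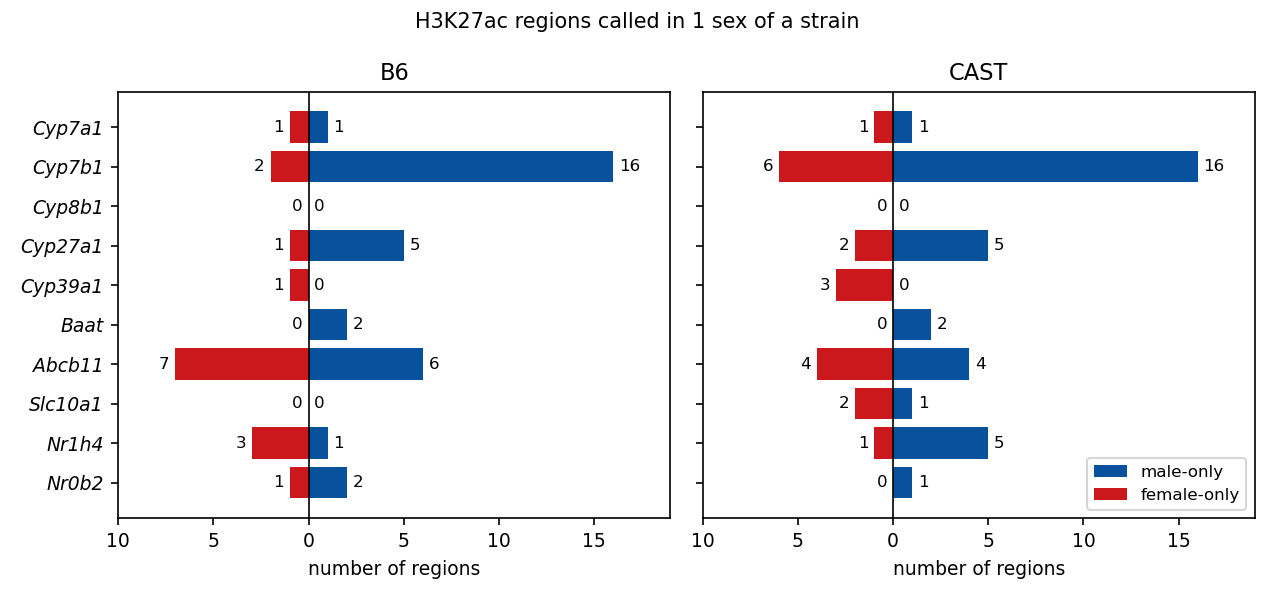
Number of regions per gene called in 1 sex of a strain and not in the other (right, male-only; left, female-only) for B6 and CAST. Cyp7b1 has 16 male-only regions in each strain, Cyp27a1 has 5 in each, Cyp8b1 has none, and Abcb11 has similar numbers in both directions.

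Baat (chr4:49502294-49519429) was the gene with the most coverage in B6 relative to CAST. Peaks covered 8944 bp (B6 males), 7878 bp (B6 females), 6375 bp (CAST males) and 6169 bp (CAST females), a CAST to B6 ratio of 0.75, although the number of peaks was 11, 9, 13 and 10. Both CAST values were below both B6 values. In spite of that, its strongest distal region by mean percentile, chr4:49497835-49498794, downstream of the gene, had fold enrichments of 2.95 and 2.98 in B6 males and females and of 3.86 and 4.68 in CAST males and females. A CAST-only region lay 2.33 kb upstream of the start at chr4:49521762-49522040, with percentiles of 61.6 in males and 72.9 in females, the highest-ranked CAST-only region of the 10 genes. Of the Baat regions, 8 of 12 were called in all 4 lists.

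Among the transporters, Abcb11 (chr2:69076339-69180671) was marked firmly at its start and little elsewhere. The region chr2:69178816-69181028 had fold enrichments of 3.88 (B6 males), 3.61 (B6 females), 4.18 (CAST males) and 3.69 (CAST females), slightly higher in the male of each strain. Only this region and its upstream neighbour, of 25 regions, were called in all 4 lists. The remainder were scattered through the gene. In B6, 6 of its 18 regions were male-only and 7 female-only, where 17.4% and 17.5% of all regions were. In CAST, 4 of its 14 regions were male-only and 4 female-only, where 21.5% and 14.1% of all regions were. Its strongest distal region, chr2:69149240-69149794, had a mean percentile of 20.4, the lowest among the strongest distal regions of the 10 genes. Distal coverage was higher in males in B6, 3038 against 1960 bp, and lower in males in CAST, 1317 against 2491 bp.

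Slc10a1 (chr12:82054172-82068971) carried 4 peaks over 6508 bp (B6 males), 3 over 6626 bp (B6 females), 6 over 6547 bp (CAST males) and 6 over 7190 bp (CAST females). Its start region, chr12:82066934-82069808, had fold enrichments of 2.929, 2.865, 3.003 and 2.677 in the same order. An upstream region 7.05 kb from the start, chr12:82076024-82078009, had higher fold enrichments in every list, 3.60, 4.13, 4.63 and 4.30, at a similar mean percentile (85.3 against 85.9 at the start). No Slc10a1 region was sex-only in B6. Of its 7 regions called in CAST, 1 was male-only and 2 female-only, where 21.5% and 14.1% of all regions were. The highest fold enrichments in its window, 5.69 to 7.01, belonged to the promoter of the neighbouring gene Srsf5.

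Of the regulators, Nr1h4 (chr10:88916979-88996330) had 20 peaks over 17535 bp (B6 males), 21 over 15960 bp (B6 females), 24 over 18410 bp (CAST males) and 20 over 16851 bp (CAST females). Of its 25 regions, 16 were called in all 4 lists. Both annotated starts of Nr1h4 were acetylated: chr10:88995070-88997292 over the start of the longest transcript had fold enrichments of 3.15, 3.07, 3.38 and 3.42, and the region over an internal start 26.2 kb downstream had 3.03, 3.21, 3.44 and 3.16. The male and female values lay close together at both starts. The intronic region chr10:88981403-88982926 was the strongest distal one by mean percentile, with fold enrichments of 2.88, 2.92, 2.99 and 2.73, and in each female list another distal peak had a higher fold enrichment (3.07 in B6, 3.03 in CAST). Nr1h4 held the 1 region of the 10 genes that was female-only in both strains, a number that became 2 in the upper 50% of each list and 0 with lists of equal length.

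Nr0b2 (chr4:133109291-133112451) is a short gene with 7 peaks over 5624 bp (B6 males), 6 over 5581 bp (B6 females), 8 over 6682 bp (CAST males) and 9 over 5067 bp (CAST females). Its start lay between chr4:133109319-133110865, in the gene body, with fold enrichments of 3.02, 3.56, 2.94 and 3.05, and a smaller region 599 bp upstream with 2.60, 2.48, 2.35 and 2.81. The promoter of the neighbour Nudc, 7.26 to 8.52, was the strongest element in the window. A further upstream region, chr4:133107728-133107980, was male-only in both strains, with a fold enrichment of 1.73 in B6 and 1.86 in CAST.

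Across the 10 genes, 64 of 168 regions were called in all 4 lists (38.1%, interval 31.1 to 45.6%), close to the 40.4% of all regions. Male-only regions were 33 of 119 called in B6 (27.7%, interval 20.5 to 36.4%) and 35 of 142 in CAST (24.6%, interval 18.3 to 32.3%). Female-only regions were 16 in B6 (13.4%) and 19 in CAST (13.4%), where 17.5% and 14.1% of all regions were. In the upper 50% of each list by score, B6 had 6 male-only regions against 9 female-only ones, so the direction turned there, and CAST had 7 of each. In both strains together, 1 region was then male-only and 2 female-only. Without Cyp7b1 the male-only shares were 18.9% in B6 (17 of 90) and 19.2% in CAST (19 of 99), near the backgrounds of 17.4% and 21.5%. In all, 9 of the 168 regions were male-only in both strains, where 2.35% of all regions were. Of the 9, 5 were at Cyp7b1, 2 at Cyp27a1, 1 at Baat and 1 at Nr0b2. Both CAST lists shared 88 regions, of which 13 were CAST-only (14.8%, interval 8.84 to 23.7%), where 11.8% of all regions were. Of the 13, 8 were at Cyp7b1, and without Cyp7b1 5 of 67 were CAST-only (7.46%, interval 3.23 to 16.3%). Both B6 lists shared 70 regions, of which 1 was B6-only, in an Abcb11 intron (1.43%, interval 0.253 to 7.66%), where 8.40% of all regions were. The number was 5 of 57 when a list had to cover at least 50% of a region, and 3 of 56 after peaks within 500 bp of each other had been joined.

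The covered bp per gene differed little between groups. Over the 10 genes the median ratio of male to female covered bp was 1.09 in B6 and 1.06 in CAST, beside medians of 1.04 and 1.09 over all protein-coding genes with at least 2 kb covered. In the top 50% of each list the B6 median turned to 0.98, with 3 of 10 genes above 1 in place of 7. In B6, 0 of 10 genes were at least 1.5-fold higher or lower in males, where 4.07% of all genes were higher and 2.20% lower. In CAST, Cyp27a1 was higher and none was lower, where 6.68% of all genes were higher and 1.03% lower. The Cyp27a1 ratio of 1.54 fell to 1.35 in the gene body alone, 1.27 with a flank of 25 kb, 1.18 with lists of equal length and 1.37 in the top 50%, so the call was lost in each. Single genes passed under other settings: Cyp7a1 in gene bodies alone, lower in B6 males and higher in CAST males, and, in the top 50% of each list, Cyp39a1 lower in B6 males (0.44) and Cyp7b1 (1.52) and Nr0b2 (1.54) higher in CAST males. Between strains 0 of 10 genes passed 1.5-fold, where 6.79% of all genes were higher in CAST and 4.35% lower. The lowest CAST to B6 ratio was 0.75 at Baat, and the highest were 1.35 at Cyp7b1 and 1.35 at Cyp39a1.

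In addition, 40 other genes of bile acid biology were compared by covered bp, of which 37 had at least 2 kb covered in a list of each comparison. Their median male to female ratio was 1.07 in B6 and 1.03 in CAST. In B6, 1 of the 37 was past 1.5-fold, lower in males, where 2.20% of all genes were lower and 4.07% higher. The gene was Cux2, a transcription factor known for its higher expression in female mouse liver and the only one past 1.5-fold in both strains. It had 9481 bp (B6 males), 18930 bp (B6 females), 9409 bp (CAST males) and 18010 bp (CAST females), and the female values lay far above the male values in both strains. In CAST, the organic anion uptake carrier Slco1a1 (4715 bp in males, 2900 bp in females) and the bile acid receptor gene Gpbar1 (2621 and 1532 bp) were higher in males, 2 of 37 where 6.68% of all genes were (1 with lists of equal length and 0 with a flank of 25 kb), and were named after their values were seen. Amacr, a racemase of side chain oxidation, was past 1.5-fold between strains in both sexes, with 6983 and 4816 bp in B6 males and females and 2911 and 3185 bp in CAST males and females. Over both sexes it was the 1 gene of the 37 past 1.5-fold lower in CAST, where 4.35% of all genes were. The 1 gene higher in CAST, where 6.79% of all genes were, was the cholesterol 24-hydroxylase gene Cyp46a1. It had 3464 and 2819 bp in the B6 lists and 4183 and 5485 bp in the CAST lists. None of the other export pumps and uptake carriers (Abcc2, Abcc3, Abcc4, Abcb4, Abcg5, Abcg8, Slco1b2) passed 1.5-fold in either comparison. The receptor Fgfr4 with its coreceptor Klb, which carry the intestinal signal that represses Cyp7a1, had male to female ratios between 0.87 and 1.04 in both strains.

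The 5 motifs searched, on both strands and with no overlap between matches in the promoters, were TTCNNNGAA (STAT5 and BCL6), CAAGGTCA (NR5A2), CAAAGTCCA (HNF4A), TGTTTAC (FOXA) and the FXR inverted repeat, which is AGGTCA followed by 1 base and its reverse complement. In the 250 bases before the start, CAAAGTCCA occurred at Cyp8b1, 67 to 59 bases before it, and at Baat, 24 to 16 bases before it, and in 0.407% of 22342 promoters. TTCNNNGAA occurred at Cyp7a1, Cyp39a1 and Nr0b2 and in 6.78% of promoters, TGTTTAC at Nr1h4 and in 2.65%, and CAAGGTCA at none and in 1.08%. No member promoter held the FXR repeat, nor did any other promoter. In the 300 bases around the peak summits, TTCNNNGAA occurred in 14 of the 168 regions (8.33%) and in 8.96% of all 119348 regions, so its share was alike. A match is a description of the letters and not evidence of binding.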

How the data were processed

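H3K27ac ChIP-seq was measured in 20 livers with 4 input controls, and the files used here are 1 merged peak list per group. According to the study's methods, the authors aligned reads with Bowtie2, B6 to mm9 and CAST to a custom CAST genome with the coordinates then converted to mm9, merged the replicates of a group, called peaks with MACS2 against the input and removed blacklisted regions. Per peak the authors deposited a score, the ratio of signal to background (fold enrichment), the −log10 p-value and the summit offset, all used here. The lists carry no read depth, and library depth was not used here.

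From these files, peaks overlapping each gene body plus 10 kb (GENCODE vM1 on NCBIM37, the mm9 assembly) by at least 1 bp were counted, and their covered bp summed within the window. Overlapping peaks of the 4 lists were merged into regions, and a region counted as male-only or female-only within a strain, or as CAST-only or B6-only where both sexes of 1 strain and neither of the other had it. Own promoter means within 2.5 kb of the start of the longest protein-coding transcript, distal means beyond 2.5 kb of every annotated start. Scores were turned into percentiles of their own list. Because each list pools 5 livers, no test was run, and shares carry 95% Wilson intervals. A 1.5-fold ratio of covered bp was counted where the larger side had at least 2000 bp. The merging and coverage code was tested on simulated data. Python 3.11 and numpy were used.

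The members and the gene lists were chosen with earlier results of these data known. Named regions were those over the starts, the strongest distal region per gene (by mean percentile), regions sex-only in the same direction in both strains, strain-only regions and the highest-ranked sex-only region per strain and direction, which gave 45 regions, of which the 30 of highest percentile were named. Regions outside these 30, and the Cyp7b1 qPCR site, were described after their values were seen. Alternatives changed the window, list length, score threshold, region definition and transcript set.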

Additional observations from a re-analysis of the deposited data

Results flagged for a closer look

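At 3 regions the sexes went in opposite directions in the strains, 3 of 168, where 3081 of all 119348 regions did, a slightly higher share. With 1 merged list per group the differences were not tested. At Cyp27a1, chr1:74761535-74761810, in an intron 1387 bp from the start, was male-only in B6 with a percentile of 25.6 and female-only in CAST with a percentile of 45.0. At Abcb11, the intronic chr2:69159440-69160245 was male-only in B6 (percentile 30.3) and female-only in CAST (percentile 17.9). At Nr1h4, the intronic chr10:88989847-88990196 was female-only in B6 (percentile 26.4) and male-only in CAST (percentile 20.4). All 3 ranked below the middle of their lists.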

How the results depend on the processing

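The male excess among sex-only regions depended on weak peaks and on Cyp7b1. At the 10 genes the male-only and female-only counts were 33 and 16 in B6 and 35 and 19 in CAST. In the top 50% of each list by score these fell to 6 and 9 in B6 and to 7 and 7 in CAST, so the B6 direction turned. In fixed bins of 1 kb the counts were 50 and 30 in B6 and 53 and 31 in CAST. With peaks up to 500 bp apart merged, 10 regions were female-only in B6. Without Cyp7b1, an alternative chosen after seeing the data, 17 regions were male-only in B6 and 19 in CAST. The 13 CAST-only regions became 4 in the top 50%, 7 with merging over 500 bp and 5 without Cyp7b1. The single B6-only region became 2 with a flank of 25 kb, 0 in the top 50%, 5 where a list had to cover at least 50% of a region, 3 with merging over 500 bp and 5 in bins. With promoters limited to 1 kb around a start, 77.4% of peaks were distal in the CAST male and 77.4% in the CAST female list. Of the other bile acid genes, 2 were past 1.5-fold with males higher in at least 1 strain, against 4 in gene bodies alone, 0 with a flank of 25 kb and 1 with lists of equal length. Cyp27a1 passed 1.5-fold in B6 and not in CAST when the lists had equal length. In gene bodies alone the male to female ratio of Cyp7a1 was 0.36 in B6 and 2.65 in CAST, and in the top 50% that of Cyp39a1 was 0.44 in B6. The remaining 62 alternative values of the main results kept within 1.5 times of their main value, or within its interval. Among them, in the top 50% the median male to female ratio in B6 (0.98) and the median CAST to B6 ratio (0.99) crossed 1. No paired analysis was possible because each list pools the replicates of its group. Precision is limited by 1 list per group, and library depth was not used here.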
